A study of Mus musculus with 2 samples.

Results

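Mir335, Mir296, Mir298, Mir675 and Mir483 are the miRNA genes of 3 imprinted regions of the mouse genome outside the large imprinted miRNA cluster on chromosome 12. They were chosen by name and locus, and make up 5 of the 2202 miRNA genes counted in each library. Small RNA was sequenced from total RNA of hippocampal tissue (given in the labels as a layer of the hippocampus) of male mice of the strain B6CASTF1/J, aged 18 to 20 months. These animals are F1 hybrids of C57BL/6 and CAST/Ei backgrounds, supplied by The Jackson Laboratory, with no treatment given. There was 1 group with 2 libraries, numbered as biological replicates 1 and 2. Each has a tissue entry of its own and both have the same donor entry. Since the labels do not state that they are separate animals, the spread and the p-values below describe these samples only and may be technical.

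In genomic imprinting, a gene is expressed mainly from the copy inherited from 1 parent, under the control of DNA methylation set in the germ line. Imprinted regions carry many genes of growth and metabolism, and several hold microRNAs, short RNAs that repress messenger RNAs by pairing with them, chiefly through a seed at bases 2 to 8. Mest and Igf2 are known as genes expressed from the paternal copy in many tissues, though not in every one. H19 is known as a non-coding RNA expressed from the maternal copy. The Gnas region holds transcripts of both kinds, and Mir296 and Mir298 are described as products of its paternal non-coding transcription. The deposited tables give counts per gene and not per parental copy, so imprinting itself was not measured here.

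The mature sequences are shown because they fix what each member can pair with and whether its reads can be told from those of other genes. They are reference sequences, and the CAST/Ei copies that these F1 hybrids carry were not examined. All 5 members were matched in the RefSeq table (build GRCm38.p6), which gives each a 5p and a 3p arm. They are written 5′ to 3′ with the seed in capitals.
miR-335-5p: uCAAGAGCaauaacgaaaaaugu
miR-335-3p: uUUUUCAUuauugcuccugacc
miR-298-5p: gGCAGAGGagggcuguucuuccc
miR-298-3p: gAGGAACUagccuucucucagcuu
miR-296-5p: aGGGCCCCcccucaauccugu
miR-296-3p: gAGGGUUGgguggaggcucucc
miR-483-5p: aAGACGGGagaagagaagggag
miR-483-3p: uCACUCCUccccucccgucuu
miR-675-5p: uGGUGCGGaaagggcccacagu
miR-675-3p: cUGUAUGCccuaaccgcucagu

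The 10 arms had 10 different seeds, so the members form no seed family among themselves. None of the 10 seeds occurred in a mature sequence of another gene in that table. This is common, since 1182 of its 1738 mature sequences (68.0%) had a seed that no other gene holds. When only bases 2 to 7 were compared, 4 of the 10 arms matched another counted gene, and the highest of these was Mir6986, a partner of miR-335-3p with 10 counts in each library. The other partners, Mir7646, Mir5621 and Mir3110, had at most 1 count in replicate 1 and at most 7 in replicate 2. These partner genes were named after their values were seen. In base composition Mir335 stood apart from the rest, with a GC content of 30.4% in its 5p arm and 36.4% in its 3p arm, against 54.5 to 68.2% in 7 of the other 8 arms, with miR-298-3p in between.

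Reads that map to several places were not assigned to genes, so uniqueness decides how far a count can be read as a level. The longest stretch that a member's hairpin shared with any other annotated miRNA hairpin was 12 bases for Mir298 and 11 bases for each of the other 4. The members shared 5 to 7 bases with each other. By contrast, 1084 of all 2202 hairpins (49.2%) shared 20 or more bases with another. Among annotated transcripts, no mature arm of a member occurred in another gene, except that both arms of Mir675 lie in H19, its own host. Copies elsewhere in the genome were not searched for, and only reference sequences were compared.

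The members differ in how they sit in their loci (mm10 coordinates, GENCODE M21 annotation). Mir335 (ENSMUSG00000065501.1, chromosome 6, 30741299 to 30741396, plus strand) lies in an intron of all 7 Mest transcripts that span it. Mest encodes a protein of the alpha/beta hydrolase fold. Mir483 (ENSMUSG00000070140.1, chromosome 7, 142654924 to 142654996, minus strand) lies in an intron of 7 transcripts of Igf2, the gene of a fetal growth factor, and of 1 transcript of the overlapping gene Gm49394. Mir675 (ENSMUSG00000076275.1, chromosome 7, 142577064 to 142577147, minus strand) lies in an exon of 3 H19 transcripts and in an intron of 1 other. Between Mir483 and Mir675 are 77.78 kb.

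Mir296 (ENSMUSG00000065521.1, chromosome 2, 174267047 to 174267125) and Mir298 (ENSMUSG00000065410.1, chromosome 2, 174267504 to 174267585) lie on the minus strand with 378 bases between them. No annotated transcript of another gene overlaps either. Nespas, the non-coding gene on the same strand, ends 13.65 kb upstream of Mir298 in this annotation, and Gnas, on the other strand, lies 16.73 kb away. No other miRNA gene lay within 10 kb of any of the 5 members.

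**Figure D1:**
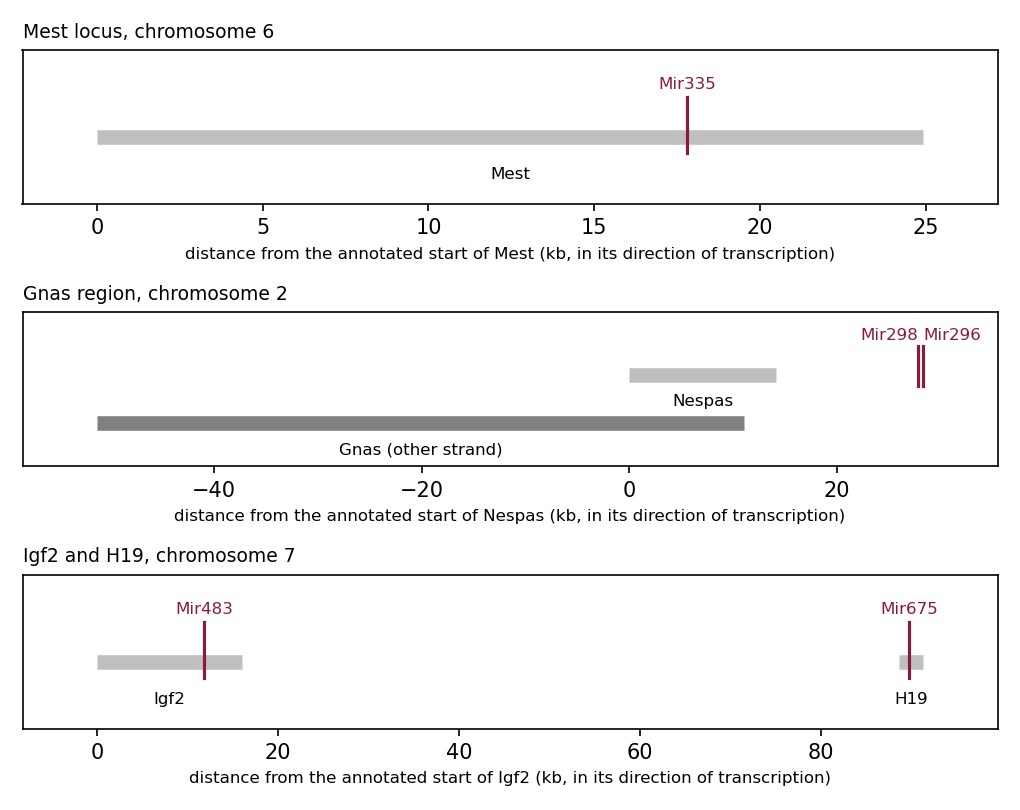
Positions of the 5 miRNA genes (red lines) along their loci, in kb from the annotated start of Mest, Nespas and Igf2 in the direction of transcription, with grey bars for annotated gene spans. Mir335, Mir483 and Mir675 lie inside a host gene, while Mir298 and Mir296 lie 13.65 kb or more beyond the annotated end of Nespas.

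Of 10594081 reads in replicate 1 and 16131923 in replicate 2, 35.48% and 34.71% were sense counts of miRNA genes, and 51.52% and 46.66% mapped to several places. Levels are in CPM, a gene's count per 1000000 sense counts summed over all miRNA genes, with 95% Wilson intervals on a library's value and mean ± SD (n = 2) over libraries. The intervals and floors hold counting error alone, because without molecular identifiers a read is not an independent molecule. Detection required at least 10 counts in each library, which 384 of 2202 genes (17.4%) reached. Of the members, 4 of 5 were detected. CPM was not scaled by length, and the mature arms are 21 to 24 bases long. A gene's count adds up its 5p and 3p arms.

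Marker miRNAs of cell types and of other tissues were looked at. The lists hold no marker of the hippocampus, so they cannot tell it from other brain tissue. The neuron list had 7 of 10 genes detected and summed to 50924 and 52461 CPM in replicates 1 and 2, led by Mir132, a microRNA induced by neuronal activity. The genes of this list that were not detected were the copies of Mir124a, singled out after their values were seen. Mir124a-1 had 2 and 5 counts, and Mir124a-3 was at 0 and shares 32 bases with Mir124a-2. How many Mir124a reads mapped to several places was not tested. Oligodendrocyte markers (2 of 3 detected) summed to 6092 and 9710 CPM, and astrocyte markers (4 of 4) to 25505 and 25271 CPM. Of the skeletal muscle list, 4 of 5 genes were at 0 (the copies of Mir1a and Mir133a), but each shares 28 or 31 bases with its other copy, so these zeros say nothing of the tissue. Mir206, which shares at most 13 bases with another hairpin, had 52.2 and 79.7 CPM. The liver list (3 of 4 detected) summed to 42.3 and 105.6 CPM.

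Mir335, the microRNA of the Mest intron, was by far the most abundant member. miR-335 is known from studies of tumour metastasis and fat cells. It had 20049 counts in replicate 1, or 5335 CPM (interval 5261 to 5409). Replicate 2 gave 25571 counts, or 4567 CPM (interval 4512 to 4623). The mean was 4951 ± 543 CPM (n = 2), which placed it at rank 41 of 2202 genes, and at ranks 39 and 46 in the single libraries. It lay 48.6 times above the median of detected genes, 101.9 CPM, and held 94.6% and 92.2% of all counts of the 5 members.

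The annotated hairpin to which these reads were assigned is shown in its reference sequence, with its mature arms in capitals. It lies at chr6:30741299-30741396 on the plus strand of GRCm38.p6.
Mir335 hairpin: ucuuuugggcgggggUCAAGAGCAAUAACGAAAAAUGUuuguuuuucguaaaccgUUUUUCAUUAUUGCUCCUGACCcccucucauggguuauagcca

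Mir298 and Mir296, the pair of the Gnas region, were read at middle levels. miR-298 has been described as a regulator of Bace1, the enzyme that starts the production of amyloid peptide, and miR-296 as a microRNA of vessel growth. Mir298 had 802 and 1427 counts, or 213 CPM (interval 199 to 229) and 255 CPM (interval 242 to 268). Its mean of 234 ± 29.3 CPM gave rank 154. Mir296 had 235 and 511 counts, or 62.5 CPM (interval 55.0 to 71.0) and 91.3 CPM (interval 83.7 to 99.5). Its mean was 76.9 ± 20.3 CPM, at rank 203. In CPM it had the widest relative spread of the detected members, a coefficient of variation of 26.4% against 11.0% for Mir335. That order depends on the scaling. On the edgeR TMM scale used for the tests below, the libraries differed more in Mir335 (log2 ratio -0.54) than in Mir296 (0.23). By mean CPM, Mir298 was above the median of detected genes, and Mir296 below it.

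Mir483, of the Igf2 intron, is known as abundant in fetal liver, and in the adult brain Igf2 is known from the choroid plexus and the meninges. It had 110 and 218 counts, or 29.3 CPM (interval 24.3 to 35.3) and 38.9 CPM (interval 34.1 to 44.5). The mean was 34.1 ± 6.84 CPM, at rank 245, and 36.2% of detected genes were lower. The choroid plexus list had 4 of its 6 matched genes detected and summed to 873 and 1556 CPM. None of the 6 was at 0 in both libraries, but Mir211 had only 3 and 4 counts and Mir1912 only 0 and 5. These 2 were named after their values were seen. Most of the sum was Mir204, with 759 and 1038 CPM. What part the choroid plexus and the meninges have in the Mir483 counts was not tested. From which parental copy these counts come was not measured.

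Mir675, of H19, had no sense count in either library. H19 is known as abundant in the embryo and the placenta and low in most adult tissues except skeletal muscle, and miR-675 has been described as a brake on placental growth. A count of 0 allows up to 3 counts, which is 0.798 CPM in replicate 1 and 0.536 CPM in replicate 2. The folds against that floor take the counts of the other member as they stand, without their counting error. So taken, Mir483 was at least 36.7-fold higher in replicate 1 and at least 72.7-fold higher in replicate 2. Mir335 was at least 6683-fold and 8524-fold higher. The value of Mir675 was shared by many genes, since 1450 of 2202 (65.8%) had no count in either library. The Mir675 hairpin is shown with arms in capitals (chr7:142577064-142577147, minus strand, GRCm38.p6). In the reference, no other annotated hairpin shares more than 11 bases in a row with it. Reads of that sequence could thus be told from those of other annotated hairpins. Whether copies elsewhere in the genome take such reads was not tested.
Mir675 hairpin: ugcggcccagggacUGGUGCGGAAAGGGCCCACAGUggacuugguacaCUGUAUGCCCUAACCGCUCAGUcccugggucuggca

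The order Mir335, Mir298, Mir296, Mir483, Mir675 was the same in both libraries, and no neighbours in it overlapped. Mir335 was 25.0 and 17.9 times as high as Mir298 in replicates 1 and 2. Mir298 was 3.41 and 2.79 times as high as Mir296. Mir296 was 2.14 and 2.34 times as high as Mir483. The lower library of Mir296, at 62.5 CPM, stood above the higher library of Mir483, at 38.9 CPM, which was the closest approach of the 4 detected members.

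**Figure D2:**
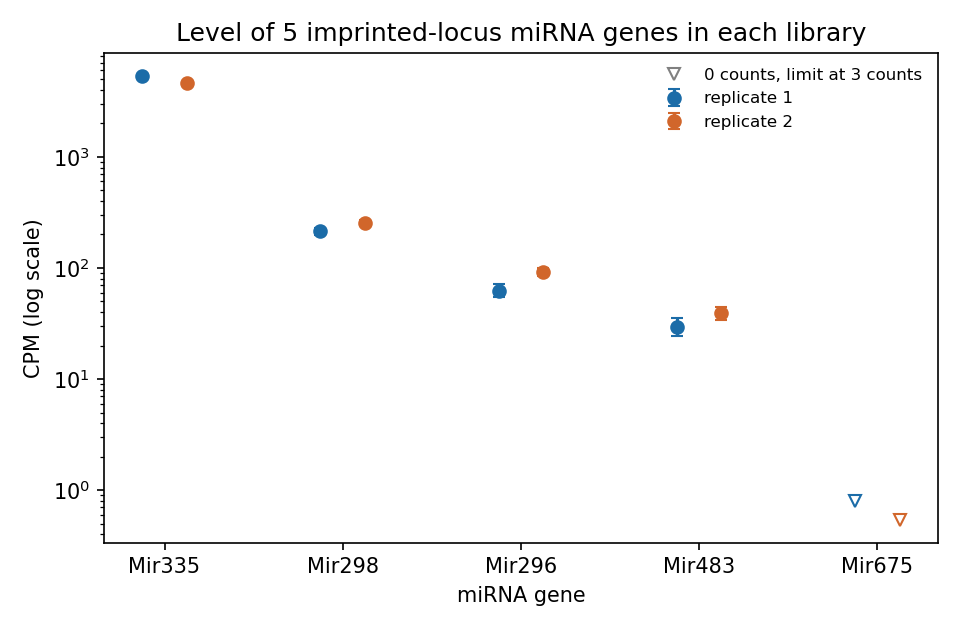
CPM of each member (log axis) in replicate 1 (blue) and replicate 2 (orange), with 95% Wilson intervals, and open triangles at the limit of 3 counts where the count was 0. Mir335 sits at 4567 to 5335 CPM, Mir298 at 213 to 255, Mir296 at 62.5 to 91.3 and Mir483 at 29.3 to 38.9, while Mir675 had no counts.

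**Figure D3:**
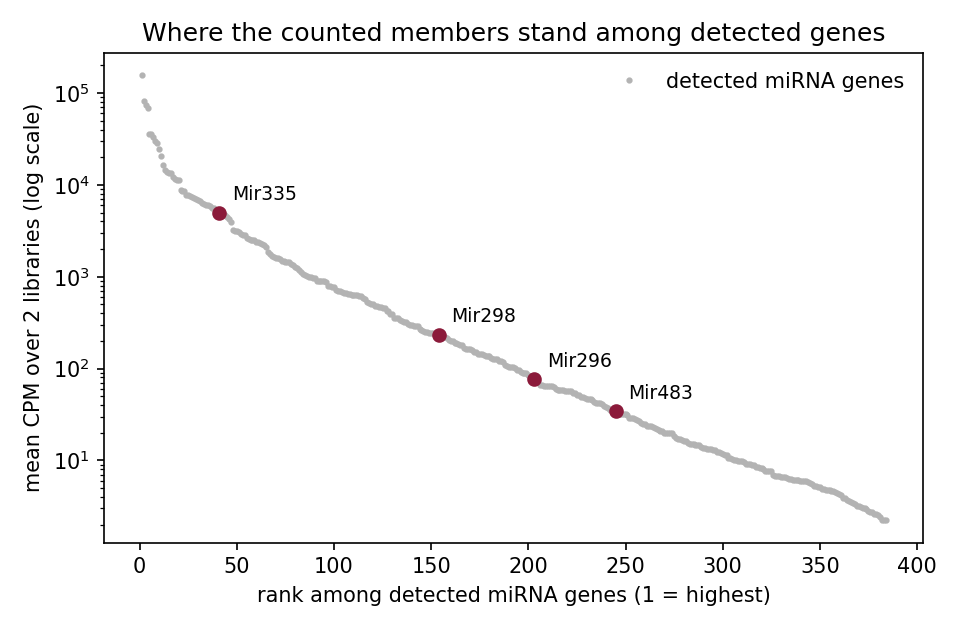
Mean CPM over the 2 libraries (log axis) against rank for the 384 detected miRNA genes (grey), with the 4 detected members in red. Mir335 stands at rank 41, Mir298 at 154, Mir296 at 203 and Mir483 at 245.

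The genes with the most similar values were sought over the 2 libraries, by Euclidean distance on log2(CPM + 1). Nearest to Mir335 were Mir30d, with 5520 and 4984 CPM (distance 0.14), and Mirlet7f-2, with 4816 and 4694 CPM (distance 0.15). Nearest to Mir298 were Mir873a (223 and 261 CPM) and Mir700 (219 and 279 CPM). Mir148b (69.4 and 82.2 CPM) and Mir190a (56.4 and 108.2 CPM) were nearest to Mir296, and Mir6516 (25.8 and 38.4 CPM) and Mir3093 (25.0 and 38.6 CPM) to Mir483. With 2 libraries, likeness here is mostly likeness of level.

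The 5 members together held 0.564% of the counts in replicate 1 (interval 0.556 to 0.572%) and 0.495% of those in replicate 2 (interval 0.489 to 0.501%), or 5296 ± 486 CPM. Other miRNA loci described as imprinted were set beside them, from a chosen list that may not be complete. Whether these loci are imprinted in this tissue was not measured. The chromosome 12 cluster, 59 miRNA genes from Meg3 to Mirg of which 51 were detected, held 9.58% in each library, 17.0 and 19.3 times as many counts as the members. In both libraries 7 cluster genes stood above Mir335, and its leading gene Mir127, named after its value was seen, had 29869 and 30115 CPM. Mir298 was below 28 and 29 cluster genes, Mir296 below 38 in each library and Mir483 below 43 in each.

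Mir335 alone had 6.17 and 5.24 times the counts of all 119 miRNA genes in Sfmbt2 introns, of which 8 were detected. Most Sfmbt2 genes are near-identical copies, so that sum leaves out reads that map to several of them. Mir184, whose expression in mouse brain has been described as imprinted, had 149 and 332 counts, or 49.5 ± 13.9 CPM, between Mir296 and Mir483. Its values of 39.6 and 59.3 CPM overlapped neither those of Mir296 nor those of Mir483. Mir489 and Mir653, in introns of Calcr, a gene described as imprinted in brain, had 0 counts in both libraries, as Mir675 did. The 186 genes of these chosen loci, the 5 members included, held 10.2% of the counts in each library. Of these counts the members gave 5.51% and 4.87%.

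Between the libraries, Mir335 was the one member called different. Libraries were scaled by edgeR TMM, and each detected gene's 2 counts went into a two-sided exact binomial test at a Benjamini-Hochberg adjusted p under 0.05. This compares 2 libraries, not conditions, and counts reads as independent. Mir335 was 1.45-fold higher in replicate 1 (interval 1.43 to 1.48, log2 ratio -0.54 for replicate 2 over 1, exact binomial adjusted p of 1e-300 or lower). In CPM it was 1.17-fold higher there. Over all 384 detected genes 65.1% were called, of which those higher in replicate 1 made up 34.1% and those higher in replicate 2 made up 31.0% of all detected genes, so a call of this kind was common. A smaller difference than that of Mir335 was found in 59.4% of detected genes.

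The other 3 detected members did not pass. Mir296 was 1.17-fold higher in replicate 2 (interval 1.002 to 1.37, exact binomial adjusted p = 0.07), Mir483 1.07-fold higher in replicate 2 (interval 0.845 to 1.36, adjusted p = 0.671), and Mir298 1.04-fold higher in replicate 1 (interval 0.955 to 1.14, adjusted p = 0.407). These intervals hold counting error alone. The median log2 ratio of all detected genes was -0.01 on the TMM scale and 0.31 with total counts. With total counts all 4 detected members were called, beside 70.6% of all detected genes, Mir335 higher in replicate 1 and the others in replicate 2, so the direction for Mir298 turned (log2 ratio 0.26). An edgeR exact test was run at the common dispersion of both libraries (biological coefficient of variation 34.4%, estimated from the same 2 libraries that it compares). It called 0 of 4 members and 2 of 384 genes (0.521%). An unadjusted p under 0.05 in it was found for 0 of 4 members and 18 of 384 genes.

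Of the chromosome 12 cluster, the binomial test called 39 of 51 detected genes, beside 65.1% of all detected genes, and 21 of them were higher in replicate 1 and 18 in replicate 2, with a median log2 ratio of 0.00 over detected genes. Of the 8 detected Sfmbt2 genes 4 were called, each higher in replicate 1, and Mir184 was not (log2 ratio 0.26, exact binomial adjusted p = 0.1). The 4 detected members had a median of 0.02. Nothing particular to either list is read from these counts. Marker genes were called in both directions by the same test, which over all detected genes called 34.1% in favour of replicate 1 and 31.0% in favour of replicate 2. Called higher in replicate 1, as Mir335 was, were 3 of 3 detected endothelial and mural markers (summed level 22045 and 16510 CPM). So were 5 of 7 neuron markers, 3 of 4 astrocyte markers and 2 of 4 microglia and leukocyte markers. In those lists, 2 neuron markers and 1 astrocyte marker were called higher in replicate 2. Of 2 detected oligodendrocyte markers, 1 was called in each direction. Called higher in replicate 2 were 4 of 4 detected choroid plexus markers, 3 of 3 liver markers, 1 of 2 red cell markers and 1 of 1 skeletal muscle marker. The part of these cell types in the difference of Mir335 was not tested.

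**Figure D4:**
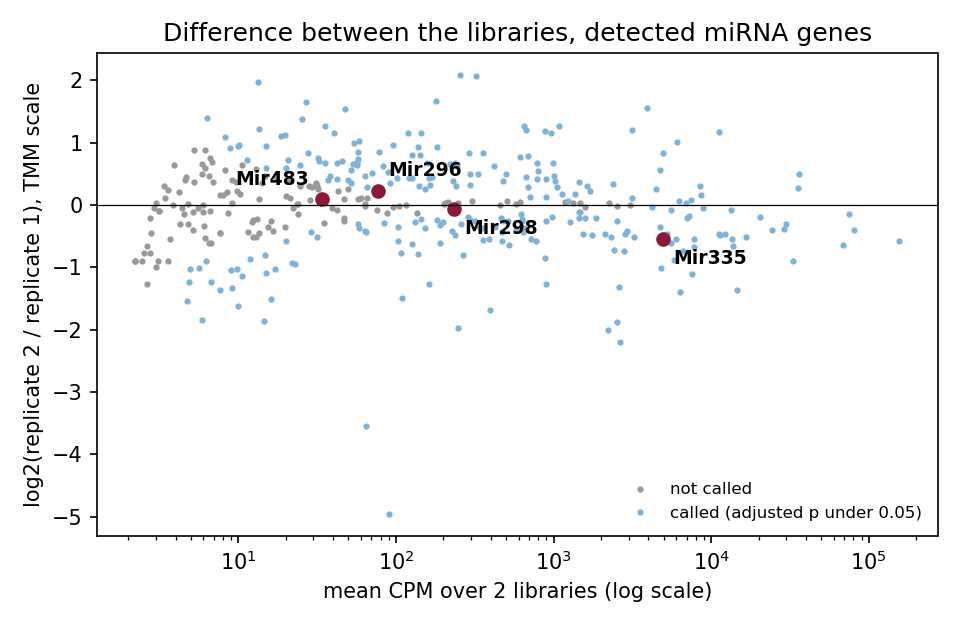
Log2 ratio of replicate 2 over replicate 1 on the TMM scale against mean CPM (log axis) for 384 detected miRNA genes, with called genes in blue, the rest in grey and the 4 detected members in red. Mir335 lies at -0.54 among called genes, and Mir298, Mir296 and Mir483 lie between -0.06 and 0.23 and were not called.

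Mir296 and Mir298 are neighbours on a strand, and their ratio within a library does not depend on scaling. Of the 1037 counts of the pair in replicate 1, 22.7% were Mir296 (interval 20.2 to 25.3%), and of the 1938 in replicate 2, 26.4% (interval 24.5 to 28.4%). The share was 3.71 percentage points higher in replicate 2 (Fisher's exact test, two-sided, p = 0.0265, odds ratio 1.22), a test of counting error between these libraries with no replicate spread. In both libraries Mir298 held most of the counts of the pair.

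The difference was set beside that of other neighbours. Across 107 pairs of detected miRNA genes next to each other on a strand and 10 kb or less apart, the median absolute difference in log2 library ratio was 0.595. For Mir296 and Mir298 it was 0.29, and 21 of the 107 pairs had a smaller one. Outside chromosome 12 there were 59 such pairs, with a median of 0.644. The 68654 pairs of detected genes on different chromosomes had a median of 0.657, and 16050 of them had a smaller difference than Mir296 and Mir298, a share close to that among neighbours. In level, Mir296 and Mir298 differed 3.04-fold, and 37 of the 107 pairs differed by less, with a median of 5.42-fold. These pairs were set up after the members' values were seen and are a description without a test, since pairs share genes and libraries.

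**Figure D5:**
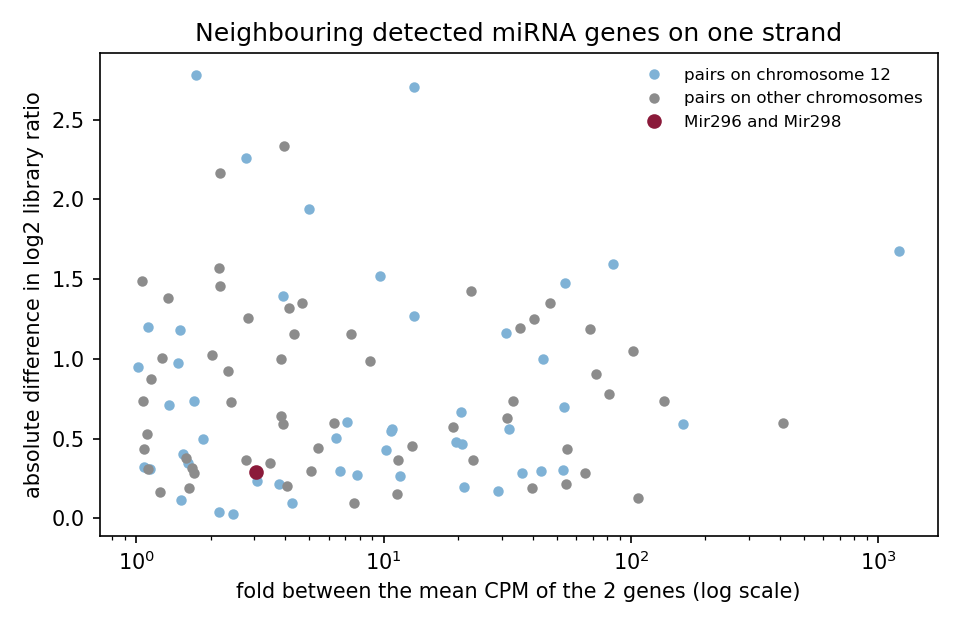
For 107 pairs of neighbouring detected miRNA genes, the absolute difference in log2 library ratio against the fold between their mean CPM (log axis), with pairs on chromosome 12 in blue, others in grey, and Mir296 with Mir298 in red. The red pair stands at 3.04-fold and 0.29, below the median difference of 0.595.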

How the data were processed

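The authors deposited, for each of the 2 libraries, a table of raw read counts per miRNA gene with 4 summary lines, made on mm10 (per the labels) with GENCODE annotation M21 (per the text beside the deposited tables). No aligner or counting program is named in the sources used here. Of the stranded count columns, the one with the larger total (3758318 and 5598792 counts, against 287729 and 425273) was taken as sense. The summary lines entered no library size, and GENCODE M21 named all 2202 identifiers. The labelled size range was under 30.

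From these counts CPM, Wilson intervals, TMM scaling (edgeR 4.0.16) and exact binomial tests (scipy 1.17.1) were computed, and p-values were adjusted over all 384 detected genes. The binomial test was checked on simulated counts with counting error alone, which says nothing of how it behaves under replicate spread. Alternatives were DESeq2 (1.42.0) size factors, total counts, other detection limits, unstranded counts, an edgeR exact test, other pseudocounts and each replicate left out.

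The members and lists were chosen with earlier results of these data known. Named genes are the members, the 2 nearest genes of each, seed partners, miRNA genes within 10 kb, Mir184, Mir489, Mir653 and the highest gene of each marker list. Others are said to be named after their values were seen, or stand in a list given whole. The highest genes of the other lists were Mir338 (3083 and 6890 CPM) for oligodendrocytes, Mir29a (19511 and 21307) for astrocytes, Mir126a (11853 and 10726) for endothelial and mural cells, Mir204 (759 and 1038) for choroid plexus and Mir122 (23.9 and 47.5) for liver. Microglia and leukocyte markers summed to 857 and 810 CPM, led by Mir150 (659 and 637), and red cell markers to 52.4 and 77.0 CPM, led by Mir451a (39.6 and 63.4). Mir1911 and Mir486a matched no symbol. A gene with the symbol Mir486, named after its values were seen, had 41 and 105 counts and was not called. It entered neither the red cell sum nor the count of red cell markers.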

Additional observations from a re-analysis of the deposited data

How the results depend on the processing

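Of 84 values recomputed under an alternative other than leaving out a replicate, 71 kept their direction and their side of the threshold, or moved by less than the spread between replicates (for counts of genes, by 1.5 times or less). With total counts in place of TMM, 4 members and 1 of the 3 genes Mir184, Mir489 and Mir653 were called, Mir296 and Mir483 passed the test (log2 ratios 0.55 and 0.41), and Mir298 turned to 0.26 in favour of replicate 2. The edgeR exact test called 0 members, 2 genes in all, and 0 genes each of the chromosome 12 cluster and of the Sfmbt2 introns. In it, 3 of 51 detected cluster genes and 0 of 8 detected Sfmbt2 genes had an unadjusted p under 0.05. Over all 384 detected genes, 18 did. The dispersion of the edgeR test was estimated from the difference between the 2 libraries it compares. It is therefore no independent allowance for replicate spread, and the low counts of that test do not show that genes did not differ. With 50 counts required in both libraries, 2 Sfmbt2 genes were called, where fewer were tested. Unstranded counts gave Mir675 a mean of 0.0966 CPM from 1 count, and a pseudocount of 10 changed 1 of the 2 nearest genes of Mir296. With the other scalings and the unstranded counts, the levels of the 4 detected members moved by less than 1 SD. Leaving out a replicate always moves a mean of 2 by less than 1 SD and so tests nothing, and the summed level then ranged from 4952 to 5640 CPM. With 1 group of 2 libraries, no condition can be compared. No paired analysis was possible because there was only 1 group.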

Other observations

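Predicted folding was computed for the hairpins of 968 counted genes with a RefSeq sequence (RNAfold of ViennaRNA 2.7.2). The hairpin of Mir675, the member without counts, had the lowest energy per base of the 5, at -0.667 kcal/mol, and 97.9% of hairpins were less stable. That of Mir335, the most abundant member, stood at -0.452 kcal/mol per base, with 69.9% less stable. Mir296 stood at -0.547, Mir298 at -0.521 and Mir483 at -0.463 kcal/mol per base. Across these 5 hairpins the order of stability was not the order of counts.

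On the opposite strand, the 4 detected members had 0 counts in both libraries. Mir675 had 0 in replicate 1 and 1 in replicate 2, which is under the limit of 3 counts.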
